A study of Mus musculus with 288 samples.

Results

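The nuclear genes of the mitochondrial respiratory chain and of ATP synthase were examined in single mouse embryonic stem cells on their exit from the naive state. Members were all rows of the count table with a name that starts with Nduf, Uqcr, Atp5 or Cox4 to Cox8, together with Sdha, Sdhb, Sdhc and Sdhd. The rule took 100 of 54232 rows. Of these, 81 are subunit genes, namely 36 of complex I, 4 of complex II, 8 of complex III, 18 of complex IV (cytochrome c oxidase, in which Ndufa4 was counted) and 15 of ATP synthase. A further 11 rows match by name but are assembly factors or related genes, and 8 rows are named as pseudogenes.

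Complexes I and II pass electrons from NADH and succinate to ubiquinone, complex III passes them on to cytochrome c and complex IV to oxygen, and ATP synthase uses the resulting proton gradient to make ATP. Complexes I, III and IV and ATP synthase combine subunits made from nuclear genes with a few made from mitochondrial DNA, whereas complex II, which is also an enzyme of the tricarboxylic acid cycle, is encoded wholly in the nucleus. Naive embryonic stem cells are known to respire as well as to use glycolysis, and cells in the primed state are known to lean more on glycolysis.

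All wells are labelled as E14, a mouse embryonic stem cell line of strain 129/Ola. They were held in 2i (inhibitors of MEK and of GSK3) with LIF, a cytokine that favours self-renewal, and labelled D0 when taken at 0 h. The labels D1 and D2 mark cells taken 24 h and 48 h after the medium was changed to serum with LIF. RNA and DNA of each sorted cell had been separated by scNMT-seq, and only the RNA was used here. Above 200000 reads and 2000 genes, and with under 15% mitochondrial reads, 90 of 96 wells labelled D0, 50 of 96 labelled D1 and 93 of 96 labelled D2 were kept. Each time point has 1 set of 96 well positions, taken here as 1 plate, and the labels name no separate cultures, so each was treated as 1 sample and time after release and plate cannot be told apart. Cells were not treated as replicates, no difference between labels has a replicate check and no test was run. Values are given as CPM, the share of a cell's reads that a gene took, brought to a common total, with the lowest, median and highest cell or with the SD between cells.

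The plates differed in ways that touch the members. Reads per kept cell had a median of 1610758.5 in D0 and 2162090 in D2, below the 7956161.5 of D1, with a full range from 202157 to 43336922, and genes with a read had medians of 9002, 10676 and 4744. Hprt had a read in 9 D0 cells, 48 D1 cells and 7 D2 cells, and Y-linked genes in 3, 48 and 5 cells, so the cells labelled D1 stood apart from both other plates. The reference that the study gives for E14 names HPRT-deficient embryos in its title. Whether the cells labelled D1 are of the same line cannot be told from these reads, and a difference of line cannot be told apart from time or plate in any ratio with D1. Counting the cells that went against the rest of their own label in these genes gave 11 in D0, 3 in D1 and 11 in D2. All 9 pluripotency markers were read in 50% or more of the cells of each label, and their summed level had medians of 5193, 6812 and 9699 CPM. The summed markers of fibroblasts, primitive endoderm, trophectoderm, mesoderm and ectoderm had medians between 0 and 25.5 CPM.

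Together the members took 2.44% of the reads in D0, 2.74% in D1 and 2.89% in D2. These shares rest on 5055967 member reads in D0 (95% Poisson interval 5051561 to 5060376), 17403412 in D1 and 6989233 in D2. Reads without molecular identifiers are not independent molecules, so intervals on reads cover counting error only. Intervals on shares of cells cover the draw of cells within a label only. Per cell, the summed level in D0 ran from 8778 CPM over a median of 23179 to 96871 CPM. In D1 it ran from 18765 over 25737 to 68741 CPM, and in D2 from 18667 over 28191 to 54173 CPM. The 3 ranges overlapped almost wholly, the lowest cells being labelled D0.

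The order of D1 and D2 depended on how cells were combined. As means, the summed level was 24154 ± 11283 CPM in D0 (SD between cells, n = 90 cells), 31005 ± 12920 CPM in D1 (n = 50 cells) and 28648 ± 5869 CPM in D2 (n = 93 cells). The log2 ratio of these means was 0.36 for D1 over D0, 0.25 for D2 over D0 and −0.11 for D2 over D1. The ratio of the medians for D2 over D1 was 0.13 on the log2 scale, of the opposite sign. In both readings D1 and D2 lay above D0. Above 40000 CPM, a limit set after the values were seen, lay 2 D0, 9 D1 and 4 D2 cells. The 9 D1 cells had a median of 57910 CPM for the members and only 529 CPM for complex II, against 25223 and 995 CPM in the other 41. Their reads also came from shorter transcripts (median over cells of the mean length 1444 nt, against 1970 nt) and more from cytosolic ribosomal protein genes (19.7%, against 9.75%), and the part of these in the high levels was not tested. Without the cells above this limit in all 3 labels the log2 ratio was 0.17 for D1 over D0, 0.30 for D2 over D0 and 0.12 for D2 over D1. The limit is on the level itself, so a lower value for D1, which had the most such cells for its number, follows from the choice. Among D0 cells, 2 lay far above the rest, at 96871 and 92210 CPM, with only 3875 and 2342 detected genes. In the first of them Atp5j alone had 23064 CPM and Uqcrb 10733 CPM, and in the other Cox8a had 7284 CPM and Ndufa4 5977 CPM. Without these 2 cells the log2 ratio was 0.46 for D1 over D0 and 0.35 for D2 over D0.

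**Figure D1:**
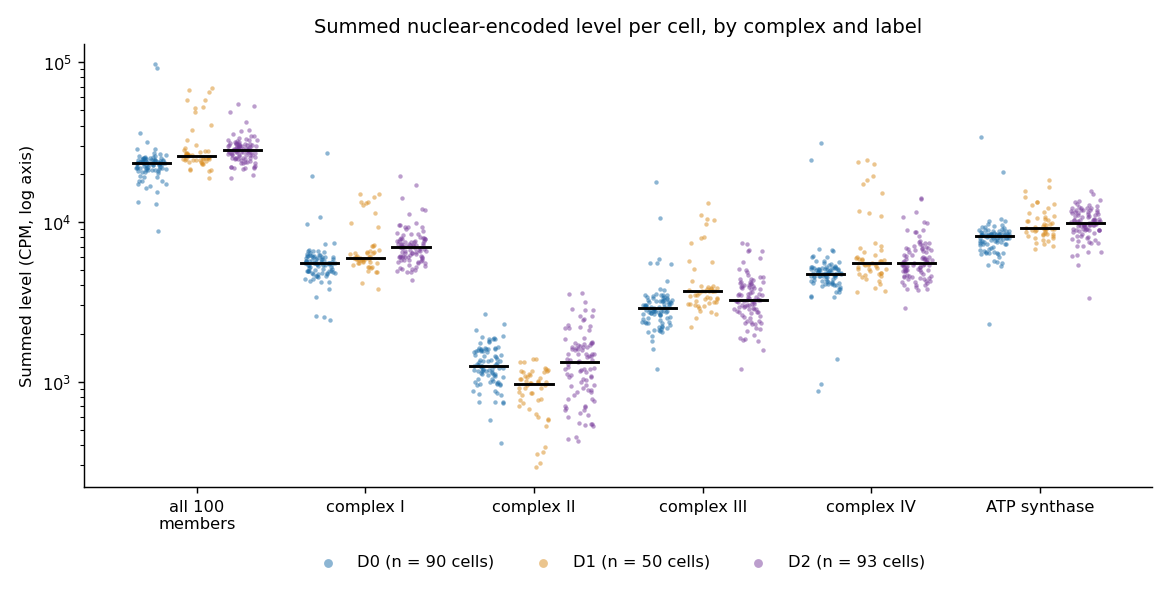
Summed level per cell of all 100 members and of the subunits of each complex, in CPM on a log axis, for 90 D0, 50 D1 and 93 D2 cells; each point is a cell and each black bar the median. The labels overlap in every complex, 2 D0 cells lie near the top in the sum of all members, and complex II has its lowest median in D1, at 966 CPM.

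By summed level, complex II was the exception among the complexes in D1. Its summed level, with all 4 subunits, was 1305 ± 378 CPM in D0 (SD between cells), 907 ± 284 CPM in D1 and 1404 ± 698 CPM in D2, a log2 ratio of −0.52 for D1 over D0 and 0.63 for D2 over D1. Complex I, the entry point for NADH, had 5841 ± 2910 CPM in D0, 7184 ± 2988 in D1 and 7320 ± 2316 in D2, log2 ratios of 0.30 and 0.33 over D0. Complex III had 3175 ± 1914, 4514 ± 2504 and 3462 ± 1203 CPM, with 0.51 for D1 over D0 and 0.13 for D2 over D0, the latter turning to −0.05 with reads summed over cells. Complex IV had 5154 ± 3601, 7742 ± 5461 and 6000 ± 1987 CPM, with 0.59 and 0.22. ATP synthase had 8232 ± 3299, 9962 ± 2452 and 9912 ± 2065 CPM, with 0.28 and 0.27. By these means complexes III and IV had larger ratios in D1 than complex I and ATP synthase, but with summed reads and TMM factors complex III had 0.30, below 0.38 for complex I and 0.34 for ATP synthase. For D2 over D1 complex I had 0.03 by its means, 0.21 by its medians and 0.25 with TMM factors, and ATP synthase −0.01, 0.11 and 0.18. Medians over cells gave smaller ratios for D1 over D0 in these complexes, 0.12 for complex I, 0.35 for complex III, 0.22 for complex IV and 0.18 for ATP synthase, and −0.37 for complex II. Without the cells above 40000 CPM in all labels the ratios were 0.11 for complex I, 0.24 for complex III, 0.23 for complex IV and 0.21 for ATP synthase, and −0.41 for complex II. With reads summed over cells and TMM factors in place of a mean over cells, which brought the median of all detected genes from −0.13 to 0.03 in D1 over D0 and from −0.16 to 0.02 in D2 over D0, the summed level of all members had 0.37 and 0.52, and D2 over D1 turned from −0.11 to 0.15. On that scale complex II had −0.15 for D1 over D0, and complex IV turned from −0.37 to 0.03 for D2 over D1. All 4 complex II transcripts are over 1000 nt. Members of 1000 nt and over had a median log2 ratio of 0.01 in D1 over D0, beside 0.83 for those under 600 nt. Single genes below 0 in D1 over D0 were also found in complex I (7 of 36), complex III (3 of 8), complex IV (1 of 13) and ATP synthase (3 of 15). The part of length in the lower sum of complex II was not tested.

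As a share of all subunit reads, the makeup of the chain was close to the same in the 3 labels except for complex II. ATP synthase took 35.3%, 34.6% and 35.7% of subunit reads in D0, D1 and D2, and complex I 24.6%, 23.8% and 25.9%. Complex IV took 21.05%, 23.7% and 21.1%, and complex III 13.2%, 14.4% and 12.2%. Complex II took 5.80%, 3.50% and 5.13%.

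The summed mRNA of the mitochondrially encoded subunits, read in the same cells, was lower in D1 and in D2 than in D0, while the nuclear sums of complexes I, III and IV and of ATP synthase were higher in the means above, apart from the value of complex III with summed reads. The 13 mitochondrial mRNAs summed to 48062 ± 20213 CPM in D0. They summed to 33775 ± 18935 CPM in D1 and to 13238 ± 5012 CPM in D2, which gave −0.51 and −1.86 over D0 on the log2 scale. For complex IV the mitochondrial part had a log2 ratio of −2.53 in D2 over D0, beside 0.22 for its nuclear part. For complex I the mitochondrial part had −1.59 and the nuclear part 0.33. For complex III, which has mt-Cytb as its only mitochondrial subunit, the values were −0.78 and 0.13, and in D1 over D0 mt-Cytb had only −0.04. The median cell had 0.512 nuclear member reads for each mitochondrial mRNA read in D0, 0.934 in D1 and 2.15 in D2. On the log2 scale that ratio ran from −2.76 to 2.11 in D0 cells, from −1.87 to 2.76 in D1 cells and from −0.24 to 11.8 in D2 cells. The highest value belongs to a D2 cell with a mitochondrial share of 0.000713%.

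The mitochondrial sums leave some genes nearly unread. mt-Co1, a core subunit of complex IV, had a mean of 24341 CPM in D0, whereas mt-Co2 and mt-Co3, the other mitochondrial core subunits of that complex, had 24.2 and 12.5 CPM, and mt-Atp6 and mt-Atp8 of ATP synthase 17.8 and 2.95 CPM. The annotation of GRCm38 places 7 near-identical copies of mitochondrial genes at chr1:24611535-24616197, and their summed means were 76.5 CPM in D0, 77.9 in D1 and 13.4 in D2. Reads that match both places may have been left uncounted, so the levels of these mitochondrial genes are uncertain, and the mitochondrial part of ATP synthase is not compared with its nuclear part.

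Differences between labels were next taken gene by gene, as the log2 ratio of (mean CPM + 10), over genes read in 50% or more of cells in 1 or both labels. A gene was counted as higher or lower where this ratio passed 2-fold. Counting error alone gave 95% margins of at most 0.098 on the log2 scale for members that are not pseudogenes. In D1 over D0, 14 of 92 detected members were at least 2-fold higher, beside 7.38% of all detected genes, and 0 were at least 2-fold lower, beside 16.7% of all. The median member had a log2 ratio of 0.37 and the median gene −0.13. In D2 over D0, 3 of 87 members were 2-fold higher, beside 6.86% of all detected genes, and 2 were 2-fold lower, beside 20.5% of all, with medians of 0.29 for members and −0.16 for all genes. In D2 over D1, 3 of 92 members were 2-fold higher (9.62% of all) and 10 were 2-fold lower (9.52% of all), with medians of −0.15 and −0.03. With TMM factors on summed reads the counts of members higher and lower were 17 and 0 for D1 over D0, 15 and 2 for D2 over D0 and 5 and 3 for D2 over D1. Summed reads alone gave 6 members higher in D2 than in D0, so that count depended on the summing and on the scaling. TMM factors moved the median of all detected genes in D2 over D0 to 0.02. The share of all detected genes past 2-fold was not taken under the alternatives, so their counts have no background. Of the 10 members lower in D2 than in D1, those kept with TMM factors were Atp5g3, Uqcr10 and Uqcrb. Without the cells above 40000 CPM in all labels, 9 members were 2-fold higher in D1 than in D0, of which 8 were among the 14, namely Atp5e, Atp5g1, Atp5h, Ndufaf2, Ndufaf8, Ndufs5, Uqcr10 and Uqcrq, and the other was Ndufb10. Those no longer past 2-fold were Atp5k, Atp5l, Cox7c, Ndufa3, Ndufa4 and Uqcrh. In D2 over D0 Atp5g3 was lost. In D2 over D1 there were then 3 higher and 3 lower, the lower ones being Atp5g3, Cox7a2l and Uqcr10. Leaving out a single cell brought some named members under 2-fold as well, namely Cox7c (0.98) and Ndufa4 (0.86) in D1 over D0, Atp5g3 (−0.94), Cox7c (0.98) and Ndufaf7 (0.95) in D2 over D0, and Cox7a2l (−0.93), Ndufa4 (−0.96), Ndufaf2 (−0.81) and Sdhc (0.98) in D2 over D1. The D1 and D2 comparisons share the D0 cells, and those with D1 share the D1 cells.

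**Figure D2:**
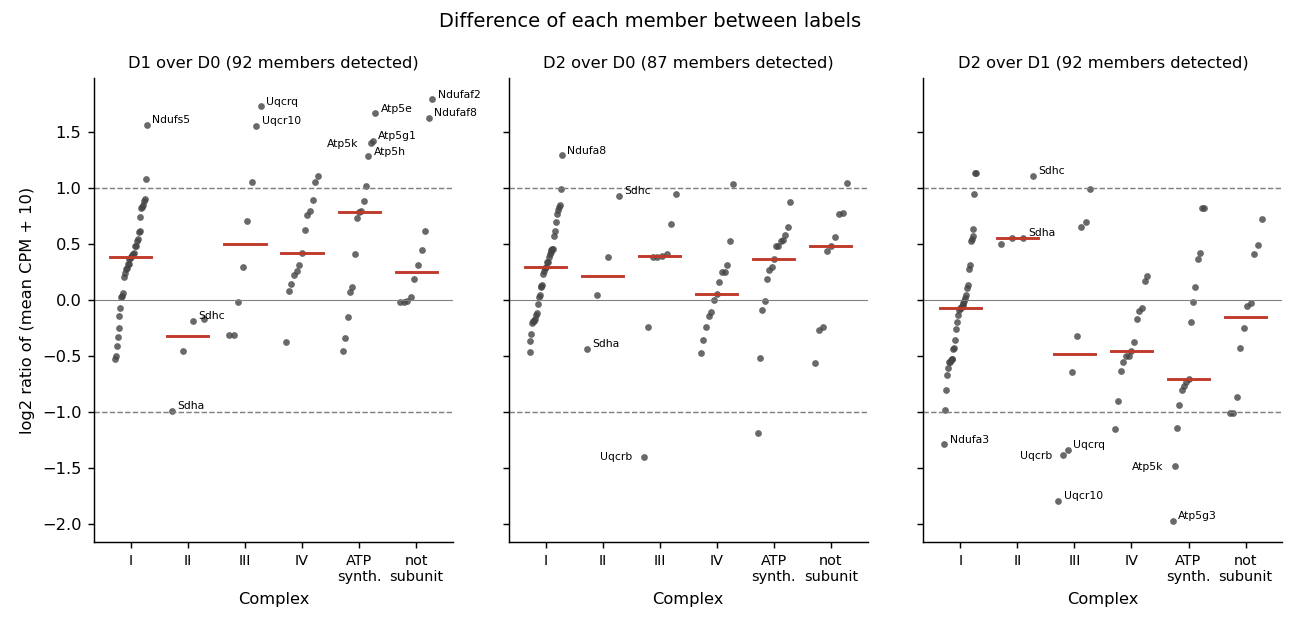
Log2 ratio of (mean CPM + 10) of each detected member in the 3 label pairs, grouped by complex (pseudogene rows left out); each point is a gene, red bars are the medians of a complex and dashed lines mark 2-fold. In D1 over D0 the 14 members past the upper line include 5 of ATP synthase and 3 of complex III, and the 4 complex II genes all lie below 0. Of all detected genes, 7.38% were past that line.

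In complex I, with 36 subunits all detected, 29 had a ratio above 0 for D1 over D0, beside 42.7% of all detected genes, and 26 had one for D2 over D0, beside 42.2%. The highest level per kilobase of transcript in D0 was that of Ndufa7, an accessory subunit, at 696 CPM per kb, and the lowest that of Ndufa12, another accessory subunit, at 59.5 CPM per kb, so subunits of the same particle differed 11.7-fold at the RNA level. Ndufs5, an accessory subunit on the intermembrane space side, ran from 3.69 over a median of 38.6 to 464 CPM in D0 cells and from 0 over 120 to 557 CPM in D1 cells, a log2 ratio of 1.56. In D1, 49 of 50 cells lay above the D0 median, although the ranges overlapped. Ndufa3, of the membrane arm, had medians of 86.4, 162 and 72.8 CPM in D0, D1 and D2, with log2 ratios of 1.08 for D1 over D0 and −1.29 for D2 over D1.

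Ndufa8, which belongs to the same side of the complex, was the member with the highest ratio in D2 over D0. It ran from 0 over 59.6 to 343 CPM in D0, from 0 over 112 to 372 CPM in D1 and from 0 over 162 to 519 CPM in D2, a log2 ratio of 1.29 for D2 over D0. Of 93 D2 cells, 82 lay above the D0 median and 9 above the highest D0 cell. Its 2-fold call held under 13 of 14 alternatives and was lost with no filter on cells, at 0.65. Ndufb8, an accessory subunit of the membrane arm, had medians of 244, 155 and 380 CPM in D0, D1 and D2, and Ndufa9, an accessory subunit at the junction of the arms, 147, 136 and 303 CPM. Both were past 2-fold in D2 over D1, each at 1.13 to 1.14 on the log2 scale. For Ndufb8, 90 of 93 D2 cells lay above the D1 median, and for Ndufa9, 64 of 93.

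Several complex I genes were lower in D1. Ndufb6, of the membrane arm, had medians of 189 CPM in D0 and 117 CPM in D1 with a log2 ratio of −0.52, and Ndufs1, the largest core subunit and a carrier of iron-sulfur clusters, had 158 and 107 CPM with −0.50. Neither passed 2-fold. In D2, Ndufs1 had a read in 75.3% of cells and a median of 30.5 CPM, far under its mean of 193 CPM, and its highest cell had 2628 CPM. Its D2 reads thus came unevenly from the cells, and the sign of its ratio over D0 differed between the mean (0.14) and the median (−2.38). Low medians were common in D2: with medians over cells, the median of all detected genes was −1.16 in D2 over D0.

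Of the complex II genes, Sdha was the member furthest below D0 in D1. Sdha encodes the flavoprotein that oxidises succinate. It ran from 12.3 over a median of 448 to 1069 CPM in D0 cells and from 0 over 222 to 581 CPM in D1 cells. Its log2 ratio was −0.99, just short of 2-fold. Only 2 of 50 D1 cells lay above the D0 median, and none above the highest D0 cell. In D2 it ran from 0 over 181 to 2004 CPM, with a read in 82.8% of cells, and 27 of 93 cells lay above the D0 median, so D2 held both low and high cells. This is not particular to Sdha, since the median D2 cell had only 4744 genes with a read, beside 9002 in D0.

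Sdhb, the iron-sulfur subunit, had medians of 349, 259 and 349 CPM in D0, D1 and D2 and a log2 ratio of −0.45 for D1 over D0. The membrane anchors are Sdhc and Sdhd. Sdhd had medians of 321, 319 and 388 CPM. Sdhc had 100, 80.2 and 125 CPM and was 2-fold higher in D2 than in D1 by its means (log2 ratio 1.11), with 56 of 93 D2 cells above the D1 median. By their means all 4 genes lay below D0 in D1 and above D1 in D2, but no other of these ratios passed 2-fold. Per kilobase the order in D0 was led by Sdhb at 327 CPM per kb, and Sdhc was lowest at 32.6 CPM per kb.

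In complex III 3 of 8 members were 2-fold higher in D1 than in D0, beside 7.38% of all detected genes. Uqcrq, a small subunit that binds near cytochrome b, ran from 38.98 over 188 to 2748 CPM in D0 and from 161 over 596 to 2745 CPM in D1, a log2 ratio of 1.73. Uqcr10, another small subunit, ran from 54.1 over 223 to 2429 CPM in D0 and from 174 over 542 to 4153 CPM in D1, a log2 ratio of 1.56. For Uqcrq 49 of 50 D1 cells and for Uqcr10 48 of 50 lay above the D0 median. In D2 they had medians of 269 and 176 CPM, log2 ratios of −1.34 and −1.80 over D1, and 45 of 93 D2 cells lay under the lowest D1 cell for Uqcr10. Uqcrh, the hinge protein, had a log2 ratio of 1.05 in D1 over D0.

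Uqcrb, the ubiquinone-binding subunit, followed another course. It ran from 51.03 over 691 to 10733 CPM in D0, from 5.71 over 728 to 6059 CPM in D1 and from 92.03 over 350 to 1083 CPM in D2. Its log2 ratio was −0.02 for D1 over D0 and −1.40 for D2 over D0, and only 6 of 93 D2 cells lay above the D0 median. In D0 it had the highest level per kilobase of its complex, 1848 CPM per kb, and Uqcrfs1, the Rieske iron-sulfur protein, the lowest, 120 CPM per kb. Uqcrc1, a core protein, had log2 ratios of −0.32 for D1 over D0 and 0.68 for D2 over D0.

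In complex IV, 13 of 18 genes were detected, and 12 of these had a ratio above 0 for D1 over D0, and 7 had one for D2 over D0, beside 42.7% and 42.2% of all detected genes. Cox7c, a small nuclear subunit, was past 2-fold over D0 in both, with a log2 ratio of 1.11 in D1 and 1.04 in D2. In D2 it passed under 7 of 14 alternatives, with a lowest value of 0.71, and it fell short with summed reads, with either set of scaling factors, with mt- reads left out of the total, with the higher limits on reads and genes, without cells that went against their label and without a single cell. In D1 it fell short with summed reads, with either set of factors, without a single cell and without the cells above 40000 CPM. It ran from 12.3 over 130 to 2484 CPM in D0, from 130 over 294 to 2109 CPM in D1 and from 128 over 332 to 1738 CPM in D2. Every D1 cell and 92 of 93 D2 cells lay above the D0 median. Ndufa4, first described with complex I, ran from 0.829 over 569 to 5977 CPM in D0 and from 286 over 748 to 10517 CPM in D1, a log2 ratio of 1.05. Its ratio of medians was only 0.40. In D2 over D1 its log2 ratio was −1.16. Cox4i1, the ubiquitous form of subunit 4, had the highest level per kilobase of complex IV in D0, 1480 CPM per kb, and log2 ratios of 0.32 and 0.53 over D0.

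Complex IV has subunits with tissue-specific copies, and most of these had reads in few cells. Reads of the heart and muscle forms Cox6a2 and Cox8b were found in 0 and 1 of 90 D0 cells, and those of Cox4i2, a form known from lung, in 2. For Cox6a2, 0 of 90 D0 cells allows a share of up to 3.33% by the rule of 3 counts of the total. Cox7a1, the heart form of subunit 7a, made up 11.1% of the per-kilobase level of its pair in D0, 7.59% in D1 and 7.10% in D2, and was the lowest of the detected complex IV genes in D0, at 58.3 CPM per kb. The testis forms Cox6b2 and Cox7b2 made up 5.98% and 5.31% of their pairs in D0, 3.52% and 2.67% in D1 and 4.45% and 4.29% in D2. The ubiquitous forms therefore took at least 88.9% of each pair in every label.

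ATP synthase held 5 of the 14 members past 2-fold in D1 over D0, out of its 15 genes and beside 7.38% of all detected genes. Atp5e, the epsilon subunit of the central stalk, ran from 0 over 42.2 to 318 CPM in D0 and from 22.8 over 123 to 889 CPM in D1, a log2 ratio of 1.67. Atp5k, the membrane subunit e, had medians of 57.3 and 118 CPM and a log2 ratio of 1.40. Atp5h and Atp5l, of the peripheral stalk and the membrane part, had 1.28 and 1.02. All 50 D1 cells lay above the D0 median for Atp5h. In D2 the medians were 64.8 CPM for Atp5e and 67.3 CPM for Atp5k, log2 ratios of −1.14 and −1.49 over D1. Atp5b, the catalytic beta subunit and the member of this complex with the highest level per kilobase in D0 (1325 CPM per kb), had medians of 2602, 2249 and 2891 CPM and log2 ratios of −0.15 and 0.27 over D0. Atp5e had the lowest level per kilobase in D0, 114 CPM per kb.

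The c subunit, which forms the turning ring of the enzyme, is made from 3 genes with different import sequences and the same mature protein. Atp5g1 ran from 15.0 over 285 to 3094 CPM in D0, from 284 over 692 to 2602 CPM in D1 and from 0 over 466 to 1993 CPM in D2. Atp5g2 ran from 0 over 100 to 275 CPM, from 86.6 over 185 to 415 CPM and from 35.7 over 184 to 460 CPM. Atp5g3 ran from 5.83 over 242 to 4781 CPM, from 104 over 380 to 2429 CPM and from 0 over 118 to 568 CPM. The genes differed between the labels: Atp5g1 was 2-fold higher in D1 than in D0 (log2 ratio 1.42), Atp5g2 had 0.89 and 0.87 over D0 in D1 and D2, and Atp5g3 was 2-fold lower in D2 than in D0 (−1.19) and in D1 (−1.97). Atp5g3 was no longer 2-fold lower than in D0 without the 2 highest D0 cells, with no filter on cells (−0.79), as a median over cells (−0.98) or with a single cell left out (−0.94), so that 1 cell decided this call.

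Per kilobase, the makeup of the c-subunit RNA differed between the labels. Atp5g1 took 44.2%, 54.3% and 56.9% of the 3 genes in D0, D1 and D2, Atp5g2 took 19.9%, 17.3% and 30.8%, and Atp5g3 took 35.9%, 28.3% and 12.3%. Cell by cell, Atp5g3 was the leading gene in 22 of 90 D0 cells, 6 of 50 D1 cells and 0 of 93 D2 cells, and Atp5g1 in 61, 43 and 79. Only 13 of 93 D2 cells lay above the D0 median of Atp5g3 and 3 above its D1 median. The coding sequences of these genes are alike, and reads shared between copies may have been left out or split by the counting.

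**Figure D3:**
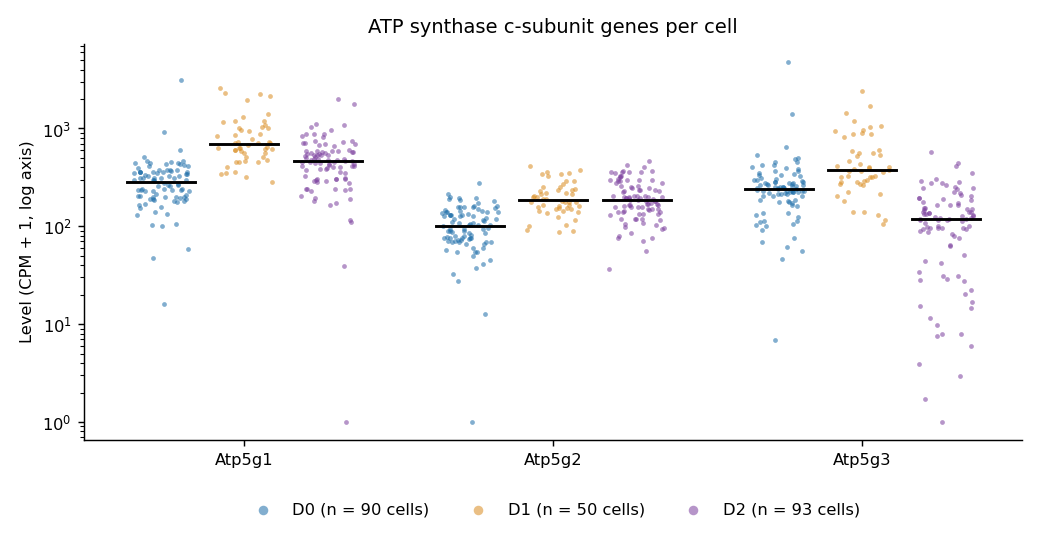
Level per cell of the 3 c-subunit genes in CPM + 1 on a log axis, for 90 D0, 50 D1 and 93 D2 cells; each point is a cell and black bars are medians. Atp5g3 has its lowest median, 118 CPM, in D2, whereas Atp5g1 and Atp5g2 lie above their D0 medians in most D1 and D2 cells.

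Sequence before the transcription start was read for members on which these differences turn, to show what lies there: the c-subunit genes, Sdha, Ndufa8 and Cox7c. The windows come from RefSeq on build GRCm38.p6 and were found for 66 of the 81 subunit genes, as 71 windows of 300 bases from 250 before to 50 after a start. Motifs were searched on both strands: GCGCANGCG for NRF1, a factor known for driving respiratory chain genes, CCGGAAGT for ETS factors such as GABPA, AAGATGGCG for YY1, and TCAAGGTCA for the estrogen-related receptors. Below are the 100 bases before the start, 5′ to 3′ on the strand of the gene, which is the minus strand in each case, with matches in capitals. They lie at chr11:96075632-96075731 (Atp5g1), chr15:102671048-102671147 (Atp5g2), chr2:73911327-73911426 (Atp5g3), chr13:74350241-74350340 (Sdha), chr2:36049339-36049438 (Ndufa8) and chr13:86046796-86046895 (Cox7c).
Atp5g1: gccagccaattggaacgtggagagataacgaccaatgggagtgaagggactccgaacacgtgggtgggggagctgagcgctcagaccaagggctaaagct
Atp5g2: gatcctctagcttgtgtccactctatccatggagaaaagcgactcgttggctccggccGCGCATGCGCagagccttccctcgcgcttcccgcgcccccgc
Atp5g3: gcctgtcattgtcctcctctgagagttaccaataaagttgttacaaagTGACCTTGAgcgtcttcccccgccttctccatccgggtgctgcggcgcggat
Sdha: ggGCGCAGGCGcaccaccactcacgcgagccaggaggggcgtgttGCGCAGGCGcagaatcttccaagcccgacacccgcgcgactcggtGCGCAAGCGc
Ndufa8: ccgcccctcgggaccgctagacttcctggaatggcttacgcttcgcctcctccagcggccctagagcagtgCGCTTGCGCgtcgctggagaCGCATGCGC
Cox7c: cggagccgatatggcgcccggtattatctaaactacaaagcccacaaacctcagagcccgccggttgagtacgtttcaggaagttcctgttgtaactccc

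In Atp5g2 the capitals are an NRF1 match, which reads the same on both strands and was counted once. In Atp5g3 they are a match for the estrogen-related receptors on the opposite strand, and its NRF1 match lies after the start and is not shown. Sdha has 3 NRF1 matches and Ndufa8 has 2. The windows of Atp5g1 and Cox7c held none of the 4 motifs. Over all subunit windows the NRF1 motif was found in 29.6%, beside 15.6% of the 9081 windows of detected genes and 6.25% of all 32851 windows. The YY1 motif was found in 9.86% (3.69% and 1.40%), the ETS motif in 7.04% (9.69% and 3.89%) and that of the estrogen-related receptors in 2.82%, from Atp5g3 and Sdhd (0.253% and 0.423%). A match is a string of letters and not a bound site.

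Among the members that are not subunits, Ndufaf2 and Ndufaf8, assembly factors of complex I, were past 2-fold in D1. Ndufaf2 ran from 0 over 21.4 to 142 CPM in D0 and from 0 over 62.4 to 868 CPM in D1, the highest ratio of all members in D1 over D0, at 1.79 on the log2 scale. Ndufaf8 had medians of 13.9 and 60.3 CPM and a log2 ratio of 1.63, and 18 of 50 D1 cells lay above the highest D0 cell. Ndufaf7, a methyltransferase that acts in complex I assembly, passed 2-fold in D2 over D0 by its means (1.04) but had a median of 17.8 CPM in D0 and 0 in D2, so a minority of D2 cells carried its reads. Cox7a2l, known for joining complexes into supercomplexes, had medians of 110, 154 and 44 CPM and a log2 ratio of −1.01 for D2 over D1. Ndufa4l2, a gene known for its response to low oxygen, had a read in 12.2% of D0 cells (95% Clopper-Pearson interval 6.26% to 20.8%), 10% of D1 cells and 37.6% of D2 cells (27.8% to 48.3%), and was below the detection limit. These intervals take the cells of a label as independent draws and are no check on a difference between labels. The 8 pseudogene rows summed to 8.22 CPM in D0, 23.5 in D1 and 9.42 in D2, which shows that few reads were assigned to these copies.

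The members are mostly short transcripts, and length moved with the ratios. Transcript lengths of the members ran from 360 nt (Cox8b) to 3632 nt (Ndufaf4) with a median of 772 nt, beside 2437 nt over all detected genes. Across 86 members, log10 length and the log2 ratio had r = −0.60 and rho = −0.60 in D1 over D0, r = 0.09 and rho = 0.09 over 85 members in D2 over D0, and r = 0.58 and rho = 0.58 in D2 over D1. All detected genes had r = −0.35, −0.36 and 0.02. Genes are not independent replicates, and these values describe the 3 plates. Members under 600 nt had a median log2 ratio of 0.83 in D1 over D0 and 10 of 25 were past 2-fold, while all genes of that length had a median of 0.11 with 12.1% past it. Members from 600 to 1000 nt had 0.42 with 4 of 27 past 2-fold (all genes 0.21 and 15.9%), and those of 1000 nt and over 0.01 with 0 of 34 (all genes −0.27 and 6.04%). In D2 over D1 the medians of the members were −0.50, −0.50 and 0.38 in these bins, beside −0.08, −0.05 and 0.01 for all genes. The median over cells of the mean transcript length of a cell's reads was 2415 nt in D0, 1936 nt in D1 and 2013 nt in D2. Length moved with the difference between the plates, and its part in the ratios of the members was not tested.

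**Figure D4:**
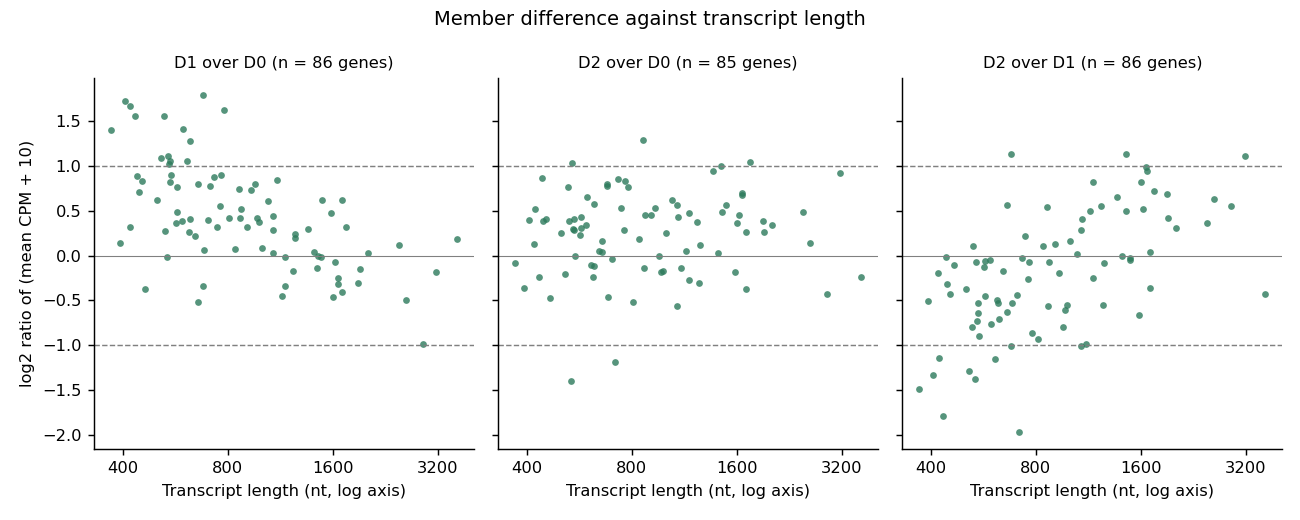
Log2 ratio of (mean CPM + 10) of the members against transcript length in nt on a log axis, for D1 over D0 (86 genes), D2 over D0 (85) and D2 over D1 (86); each point is a gene and dashed lines mark 2-fold. Shorter members lie higher in D1 over D0 (r = −0.60) and lower in D2 over D1 (r = 0.58), with no such slope in D2 over D0 (r = 0.09).

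The relation of the summed level to the mitochondrial share was taken cell by cell within each label. The mitochondrial share, which is the share of a cell's reads on the 37 mt- rows, had a median of 4.54% in D0 (1.22% to 10.4%), 3.32% in D1 (0.739% to 10.2%) and 1.32% in D2 (0.000713% to 2.78%). Because both measures would share the total, the level was taken as CPM of the reads outside the mt- genes. Pearson's r was −0.07 in D0 (n = 90 cells), −0.11 in D1 (n = 50) and 0.22 in D2 (n = 93), and Spearman's rho −0.27, −0.15 and 0.18. These are weak relations, and the cells of a label were treated as 1 sample from 1 plate. Without the 2 cells farthest from the median share, r was −0.06, −0.09 and 0.25. In D0 the value also turned on the plate side, with r = 0.14 in plate columns 1 to 6 and −0.20 in columns 7 to 12, and in D1 it was 0.02 and −0.32.

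**Figure D5:**
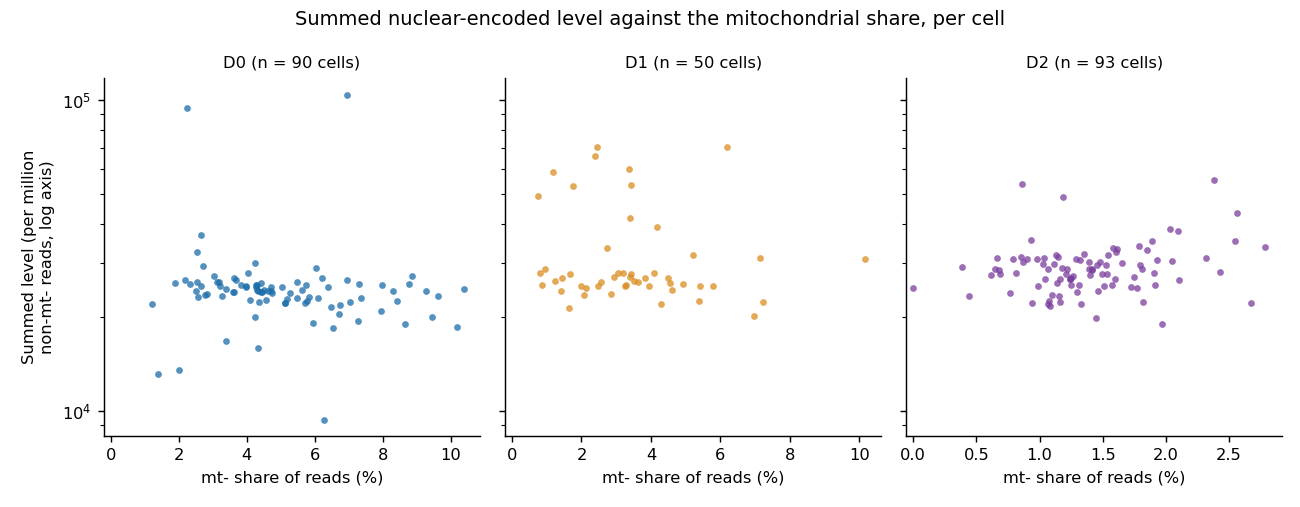
Summed level of the members in CPM of the reads outside the mt- genes, on a log axis, against the mt- share of reads in percent, with a panel each for 90 D0, 50 D1 and 93 D2 cells; each point is a cell. The clouds are nearly flat, with rho of −0.27, −0.15 and 0.18, and the x axes differ in range between the panels.

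By complex, the rho with the mitochondrial share in D0 was −0.37 for complex I, −0.35 for complex II, −0.0014 for complex III, −0.15 for complex IV and −0.22 for ATP synthase. In D1 it was −0.22, 0.07, −0.10, −0.19 and −0.10, and in D2 0.12, 0.05, 0.19, 0.01 and 0.10. Other measures of a cell were set beside the summed level too. The rho with the mean transcript length of a cell's reads was −0.71, −0.80 and −0.70 in D0, D1 and D2, that with the number of detected genes −0.36, −0.37 and −0.43, and that with the share of cytosolic ribosomal protein reads 0.26, 0.70 and 0.52. The mitochondrial share itself had a rho of 0.58, 0.40 and 0.07 with that mean length in D0, D1 and D2. With the ribosomal protein share it had −0.26, −0.49 and −0.22, and with reads per cell 0.29, 0.13 and −0.46. The part of length, of ribosomal protein reads and of depth in the relations above was not tested.

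Complexes differed in how they moved together from cell to cell. In D0 each pair of complexes had a rho between 0.39 and 0.63. In D1 complexes I, III and IV and ATP synthase had 0.63 to 0.76 among themselves, whereas complex II had −0.32 with complex I, −0.42 with complex III, −0.47 with complex IV and −0.46 with ATP synthase. In the 41 D1 cells up to 40000 CPM these 4 values were −0.01, −0.16, −0.24 and −0.21, and the other pairs had 0.34 to 0.56. All values were nearer to 0 in these cells, which were chosen by their summed level and span a narrower range. Over all 50 D1 cells, single members of other complexes also had a rho below 0 with the sum of the other members. Among them were Atp5a1 (−0.52), Ndufv1 (−0.49) and Uqcrc1 (−0.38). Of complex II, Sdha had −0.51, Sdhd −0.48, Sdhc −0.21 and Sdhb −0.05. Of 92 members, 71 were above 0, beside 26.1% of all genes. In D2 complex II had between −0.16 and −0.01 with the others, and the other pairs ran from 0.12 for complex I with ATP synthase to 0.53 for complexes I and IV. In D1 the level of complex II also had the opposite sign from all other complexes with the mean transcript length of a cell (rho 0.42) and with ribosomal protein reads (−0.42). The transcripts of the complex II genes have 2900 nt (Sdha), 1142 nt (Sdhb), 3171 nt (Sdhc) and 1231 nt (Sdhd).

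Single members differed in their relation to the mitochondrial share. Among genes read in 50% or more of the cells of a label, the median member had a rho of −0.19 in D0 (87 members), −0.13 in D1 (92) and 0.03 in D2 (83), and the median gene −0.01 in each. In D0, 61 of 87 members were below 0 (70.1%), beside 51.2% of all genes, and in D2 31 of 83 were (37.3%), beside 52.7% of all genes. The lowest value in D0 was that of Atp5b (−0.59) and the highest that of Uqcrb (0.56). In D1 the lowest was that of Ndufb8 (−0.45) and the highest that of Ndufab1, the mitochondrial acyl carrier protein (0.56). In D2 they were Cox5b, a subunit of complex IV (−0.23), and Cox7c (0.30). Of all genes, 5% lay below −0.31 in D0 and 5% above 0.29. The median rho of a member with the sum of the other members was 0.25, 0.42 and 0.21, beside −0.06, −0.18 and −0.05 for all genes against the members' sum. The highest were Uqcr10 in D0 (0.63), Uqcrq in D1 (0.79) and Uqcr11 in D2 (0.60). The lowest were Cox6b2 in D0 (−0.26), Atp5a1 of ATP synthase in D1 (−0.52) and Ndufaf3 in D2 (−0.19).

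Genes around the chain were read by lists. Of 14 tricarboxylic acid cycle enzymes, 0 were past 2-fold in D1 over D0, beside 7.38% of all detected genes higher and 16.7% lower, where their median log2 ratio was −0.51, and in D2 over D0 the median was 0.25, with 1 enzyme higher and 1 lower (6.86% and 20.5% of all genes), Suclg1, the alpha subunit of succinyl-CoA ligase, at 1.29 and Sucla2, its ATP-specific beta subunit, at −1.10. The median in D2 over D1 was 0.80, with 1 enzyme higher, Idh3a of isocitrate dehydrogenase at 1.01, and 1 lower, Sucla2 at −1.51 (9.62% and 9.52% of all genes). Of 37 other assembly factors detected in D1 over D0, 4 were 2-fold higher (7.38% of all detected genes) and 1 lower (16.7% of all), led by Uqcc2, a complex III assembly factor, at 1.92, and Cox17, a copper chaperone of complex IV, at −1.09. In D2 over D0, 4 of 34 were higher (6.86% of all) and 1 lower (20.5% of all), from Surf1, a complex IV assembly factor, at 1.48 to Ttc19, of complex III, at −1.24. Surf1 and Ttc19 had D2 medians of 0, so these ratios rest on few cells. Atpif1, the inhibitor of ATP synthase, was the only 1 of 6 electron carriers and inhibitor genes past 2-fold in D1 over D0, beside 7.38% of all detected genes higher and 16.7% lower. It had 1.04, with medians of 237 and 342 CPM.

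Of 18 detected genes of mitochondrial transcription and its regulators, 0 were 2-fold higher and 3 were 2-fold lower in D1 over D0, beside 7.38% and 16.7% of all detected genes, so the share lower was that of all genes. These were Polg, the mitochondrial DNA polymerase, at −1.76, Lrpprc, which stabilises mitochondrial mRNAs, at −1.46, and Gabpa, the ETS factor named above, at −1.22. In D2 over D0 the same 3 genes of 15 detected were 2-fold lower, again near the 20.5% of all genes, at −1.69, −1.01 and −1.02, and 1 was higher (6.86% of all genes), Tfb1m, a mitochondrial rRNA methyltransferase, at 1.505. The medians of Polg were 72.5 CPM in D0, 9.21 in D1 and 0 in D2. Tfam, which packages and transcribes mitochondrial DNA, had 0.84 for D1 and −0.01 for D2 over D0.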

How the data were processed

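The RNA of 288 single-cell wells was used, with 96 wells per label. For each gene the authors deposited raw counts as whole numbers, not normalized and with no filter on cells, although the sample descriptions name a normalized table. Depth per kept cell ran from 202157 to 43336922 reads. Per the labels' processing notes HISAT2 and GRCm38 were used, and the annotation and the counting tool are not given in the sources used here. The study prints the mitochondrial limit with a percent sign, and under that reading 1 cell would pass, so it was taken as a fraction of 0.15, under which 233 cells passed, not the number of cells the study states.

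Counts were divided by the total of each cell to give CPM. Differences are ratios of means over cells, with 10 CPM added for single genes. With no separate cultures named in the labels, each label was treated as 1 sample and no test was run, and calls mark a 2-fold ratio among genes read in 50% or more of cells in 1 or both labels. Transcript lengths and gene positions came from GENCODE M21 on GRCm38, which may not be the annotation of the authors, and promoter windows from RefSeq on GRCm38.p6. The Y-linked genes were Ddx3y, Eif2s3y, Kdm5d and Uty. Shares of cells have Clopper-Pearson 95% intervals. Python 3.11.15, numpy 2.4.6, pandas 2.3.3, scipy 1.17.1, R 4.3.3 and edgeR 4.0.16 (TMM and median-of-ratios factors on summed reads only) were used, and the steps were tested on simulated data.

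Named genes were the 3 largest rises and falls among detected members per label pair, the highest and lowest member per kilobase of each complex in D0, the complex II genes, the isoform pairs, the members with the highest and lowest correlation with the mitochondrial share, and the largest rise and fall of each other list. Further members past 2-fold were named after their values were seen. Members, lists, rules and alternatives were chosen with earlier results of these data known. Alternatives covered filters on cells, totals, scaling, thinning to 200000 reads, medians, plate columns 1 to 6 and 7 to 12, the pseudocount, detection and leaving out cells. Leaving out the 2 highest D0 cells or the cells above 40000 CPM (in D1 or in every label) was added after the values were seen.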

Additional observations from a re-analysis of the deposited data

Results flagged for a closer look

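Wells labelled D1 that failed the filter on cells were not used in the comparisons, but held reads of the members. Of 46 such wells, 27 had at least 1000 reads, and in these the summed level of the members had a median of 31621 CPM, from 9427 to 63599 CPM, beside a median of 25737 CPM in the 50 D1 cells that passed. This was listed because it is a signal in data that the comparisons leave out. In the 6 failed wells labelled D0 and the 3 labelled D2, 2 wells each had that many reads, with 27157 and 85469 CPM in D0 and 64728 and 91853 CPM in D2.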

How the results depend on the processing

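No paired analysis was possible because each label was treated as 1 sample, its wells carry plate positions and no replicate numbers, and no test was run. The summed level of all members was above that of D0 both in D1 and in D2 under every alternative. In the order D1 over D0, D2 over D0 and D2 over D1, its log2 ratio was 0.37, 0.25 and −0.12 with no filter on cells, 0.41, 0.27 and −0.14 with more than 300000 reads and 3000 genes, 0.27, 0.21 and −0.060 in plate columns 1 to 6, 0.45, 0.28 and −0.17 in plate columns 7 to 12, 0.35, 0.22 and −0.13 without cells that went against their label, 0.34, 0.19 and −0.14 with mt- reads left out of the total, and 0.36, 0.25 and −0.12 with cells thinned to 200000 reads. It was 0.16, 0.24 and 0.077 with reads summed over cells, 0.37, 0.52 and 0.15 with TMM factors on these sums, 0.27, 0.47 and 0.20 with median-of-ratios factors, and 0.15, 0.28 and 0.13 as medians over cells, so D2 over D1 was reversed in the last 4 (summed reads, both sets of factors and medians). Leaving out each cell in turn gave 0.32 to 0.41, 0.23 to 0.30 and −0.13 to −0.078. Without the 2 highest D0 cells, a choice made after the values were seen, it was 0.46 and 0.35 over D0, with 21 members higher and 1 lower in D1 and 4 higher and 1 lower in D2. Without the cells above 40000 CPM in every label, chosen in the same way, it was 0.17, 0.30 and, reversed, 0.12, with 9 members higher in D1 than in D0, 1 lower in D2 than in D0 and 3 lower in D2 than in D1. With only the 9 such D1 cells left out, which lowers D1 alone, it was 0.074 for D1 over D0 and reversed to 0.17 for D2 over D1, with 7 and 3 members.

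For the counts under the alternatives, the share of all detected genes past 2-fold was not taken, so they have no background. The 14 members higher in D1 than in D0 became between 9 (summed reads) and 19 (no filter on cells), and 1 was lower, in place of 0, with no filter on cells, in plate columns 1 to 6, with mt- reads left out of the total and with a pseudocount of 1 CPM. The 3 members higher in D2 than in D0 became 2 without cells that went against their label or without mt- reads in the total, 5 in plate columns 7 to 12 or with a pseudocount of 1 CPM, 6 with summed reads and 15 with either set of scaling factors, and the 2 lower became 3 with summed reads and 9 as medians, where neither Atp5g3 nor Uqcrb was among the 9 and the median of all detected genes was −1.16, beside 0.20 for the members. The 3 members higher in D2 than in D1 became 8 with no filter, 7 in plate columns 7 to 12, 5 with either set of factors and 2 as medians. The 10 lower became 3 with summed reads or TMM factors, 2 with median-of-ratios factors and 13 as medians. Of the named members, the direction of Ndufaf7 in D2 over D0 was reversed as a median, from 1.04 to −1.48. Atp5e, Atp5g1, Ndufaf2, Uqcr10 and Uqcrq in D1 over D0 and Atp5g3 and Uqcr10 in D2 over D1 passed 2-fold under the 14 alternatives run for single genes, but Uqcr10 in D1 over D0 not with only the 9 high D1 cells left out.

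The correlation with the mitochondrial share moved by over 0.1 in D0 to 0.14 in plate columns 1 to 6, to −0.20 in columns 7 to 12 and to −0.27 as Spearman's rho, and in D1 to 0.016 and −0.32 in these columns. Without the cells above 40000 CPM it was −0.17 in D0 and 0.066 in D1. Leaving out each cell in turn gave −0.20 to 0.018 in D0, −0.22 to −0.064 in D1 and 0.15 to 0.30 in D2. The causes were not tested. Reads per cell differed between the labels, most in D1, and the part of depth in the ratios beyond thinning was not tested. Near-identical copies leave the c-subunit and mitochondrial genes uncertain.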
